A study of Mus musculus with 20 samples.

Results

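The genes described here encode the tenascins and the hyaluronan-binding proteoglycans of the matrix around neurons, as read by RNA sequencing of cultured cerebellar granule neurons of the mouse. They are the tenascins Tnr and Tnc, the lecticans Bcan (brevican), Ncan (neurocan), Vcan (versican) and Acan (aggrecan), the link proteins Hapln1, Hapln2 and Hapln4, and the receptor phosphatase Ptprz1. They were taken by gene symbol from the deposited table, which held all 10 among its 24411 genes. Of the 10, 8 passed the filter on low counts, and Acan and Hapln1 did not. Expression is given in CPM, counts relative to the scaled library total, and differences are given as log2 fold changes with their SE.

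Lecticans are secreted core proteins that carry chondroitin sulfate chains, hold on to hyaluronan at one end and bind tenascins at the other. Link proteins fasten the lectican to the hyaluronan chain, and tenascin-R, the product of Tnr, joins lecticans to each other, so that together they build the perineuronal net and the looser matrix around synapses. Ptprz1 is a receptor-type tyrosine phosphatase that binds tenascins and pleiotrophin outside the cell, and a secreted splice form of it, phosphacan, is itself a chondroitin sulfate proteoglycan. In the cerebellum Tnc and several lecticans are known from astrocytes and Bergmann glia, whereas Tnr is known from oligodendrocytes and from some neurons.

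The 20 libraries fell into 4 groups of 5, numbered 1 to 5 in each. The groups were control cultures, cultures with an shRNA against endogenous mouse Kdm6b (shKdm6b), and cultures with the same shRNA plus an active (active rescue) or a catalytically dead (dead rescue) human KDM6B enzymatic domain. Kdm6b encodes a demethylase of lysine 27 of histone H3, and the study asked whether its enzymatic activity is enough to restore expression of synaptic genes. Infection is given as day 1 in vitro for all 4 groups, controls included. AraC, which kills dividing cells, was added on day 2, and RNA was harvested on day 7. The rescues supplied only the enzymatic domain, not the whole protein. The labels do not describe what virus the control cultures received. Nor do they name separate animals or cultures behind the libraries, and the p-values below therefore speak of the spread among these 20 samples.

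The libraries held 14200745 to 21179300 estimated counts, so that 1 count equalled 0.0460 to 0.0664 CPM. Libraries with the same number deviated together from their group means in all 30 such pairs (r across genes 0.361 to 0.881), and the number was therefore used as a pairing, although the labels do not say what it stands for. Kdm6b itself was at 141, 171, 139, 81.2 and 187 CPM in control libraries 1 to 5 and at 99.4, 112, 89.3, 37.9 and 76.4 CPM in shKdm6b libraries 1 to 5, lower in 5 of 5 pairs (log2 fold change -0.88 ± 0.21, adjusted p = 0.0231, paired edgeR). In the rescues numbered 1 to 3 it was at 192 to 312 CPM, above the control of each number. In the rescues numbered 4 and 5 it was at 54.9 to 119 CPM, below the control of each number. Each rescue library was above the shKdm6b library of its number. Neither rescue passed the test against shKdm6b (log2 fold change 1.26 ± 0.21, adjusted p = 0.0865, for active and 0.98 ± 0.21 for dead, paired edgeR). The levels in the rescues can include reads from the human sequence. The 12 markers of granule neurons were detected in every library, and their summed level was 1488 to 2692 CPM in the libraries numbered 4 against 4630 to 8906 CPM elsewhere. Markers of astrocytes and Bergmann glia (14 genes) summed to 13466 to 17276 CPM in the libraries numbered 4 and to 2605 to 8396 CPM elsewhere. The 45S ribosomal precursor Rn45s was at 24208 to 76079 CPM in numbers 1 to 3 and at 2127 to 5816 CPM in numbers 4 and 5.

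Each lectican gene of the set lay beside a gene for a link protein in the GRCm38 annotation, with 0 protein-coding genes between them. Bcan (chr3:87987531-88000230) and Hapln2 (chr3:88021750-88027583) were 21.5 kb apart on the same strand, Ncan (chr8:70093085-70120873) and Hapln4 (chr8:70083457-70090862) 2.22 kb apart on opposite strands, and Vcan (chr13:89655312-89742509) and Hapln1 (chr13:89539796-89611652) 43.7 kb apart on opposite strands. Acan (chr7:79053483-79115099) ended 0.002 kb from the end of Hapln3, the remaining link protein gene. Tnr (chr1:159523769-159931729, plus strand) spanned 408 kb, Tnc (chr4:63959785-64047015, minus strand) 87.2 kb and Ptprz1 (chr6:22875502-23052916, plus strand) 177 kb. Antisense genes overlap Tnr and Vcan in this annotation, and the sources used here do not give whether reads were counted by strand.

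The start regions of the 2 tenascins and of Bcan are shown because Tnr differed between the groups while Tnc and Bcan, also abundant, did not pass the test. The windows run from 250 bases before to 50 bases after the RefSeq start (GRCm38.p6), 5′ to 3′ on the gene's own strand, with every CG dinucleotide in capitals.
Tnr, chr1:159523519-159523818, plus strand: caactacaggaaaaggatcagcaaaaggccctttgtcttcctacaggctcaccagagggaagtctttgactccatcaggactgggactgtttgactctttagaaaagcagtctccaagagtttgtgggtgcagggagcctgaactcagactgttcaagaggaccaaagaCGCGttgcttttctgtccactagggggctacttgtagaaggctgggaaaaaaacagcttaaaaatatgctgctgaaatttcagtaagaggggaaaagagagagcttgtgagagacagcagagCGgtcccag
Tnc, chr4:64046966-64047265, minus strand: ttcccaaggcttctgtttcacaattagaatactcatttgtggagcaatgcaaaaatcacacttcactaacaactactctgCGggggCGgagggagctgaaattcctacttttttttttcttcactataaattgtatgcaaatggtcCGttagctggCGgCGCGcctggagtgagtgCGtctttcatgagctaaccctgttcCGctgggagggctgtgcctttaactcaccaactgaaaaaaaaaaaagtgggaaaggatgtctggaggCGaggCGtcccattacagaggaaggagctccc
Bcan, chr3:88000307-88000606, minus strand: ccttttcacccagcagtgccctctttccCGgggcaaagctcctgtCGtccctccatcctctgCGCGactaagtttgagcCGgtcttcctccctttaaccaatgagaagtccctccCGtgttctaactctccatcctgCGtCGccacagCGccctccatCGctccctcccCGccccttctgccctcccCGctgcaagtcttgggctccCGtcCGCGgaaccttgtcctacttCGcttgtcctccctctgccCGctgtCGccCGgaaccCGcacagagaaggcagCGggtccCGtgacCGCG
The Tnr window held 3 CG dinucleotides, and 76.7% of the 32851 mouse windows of this length held at least as many. Tnc held 10 in the window printed and 16 in a second, overlapping window further downstream, and Bcan held 24, a number reached by 19.98% of windows. Of the other members, Acan held 31, Ptprz1 29, Vcan 12, Ncan 9, Hapln1 3 and Hapln2 2, against a median of 7 over all windows. The printed windows were picked by outcome, and a relation of the CG number to the group differences was not tested. A match was found for 9 of the 10 members. A search on both strands for TATAAA, the core promoter TATA element, found it in Tnc and Ncan and in 13.6% of all windows. The E-box CAGCTG was found in Ncan, Acan and Hapln2 and in 16.3% of all windows, and TTGGCA, a sequence bound by nuclear factor I, in Ncan and the second Tnc window and in 14.1% of all windows. The E-box CAGATG (17.2% of all windows) was in none of them, and the Tnr window held none of these 4 motifs.

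In the control cultures the members differed widely in level per exon length (estimated counts divided by the length of the gene's exons and scaled to the same sum in every library). Tnc was at 156 ± 65.5 and Ncan at 141 ± 78.4 (SD, n = 5), and they did not separate, since Tnc was above Ncan in 3 of 5 libraries. Bcan followed at 74.2 ± 70.4 and Vcan at 53.1 ± 27.5, with Bcan above Vcan in only 2 of 5 libraries, while Ncan was above Bcan in 5 of 5. Ptprz1 at 21.9 ± 11.98 and Tnr at 19.7 ± 12.6 did not separate either (3 of 5 libraries). The link proteins were lower on this scale. Hapln4 was at 1.61 ± 0.29, Hapln2 at 0.881 ± 0.578 and Hapln1 at 0.265 ± 0.241, and Acan had the lowest mean, 0.183 ± 0.129, although Hapln1 was above it in only 3 of 5 libraries. The tenascin and lectican mRNA of these cultures was thus mostly Tnc, Ncan, Bcan and Vcan, and the order was the same when the longest transcript gave the length.

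**Figure D1:**
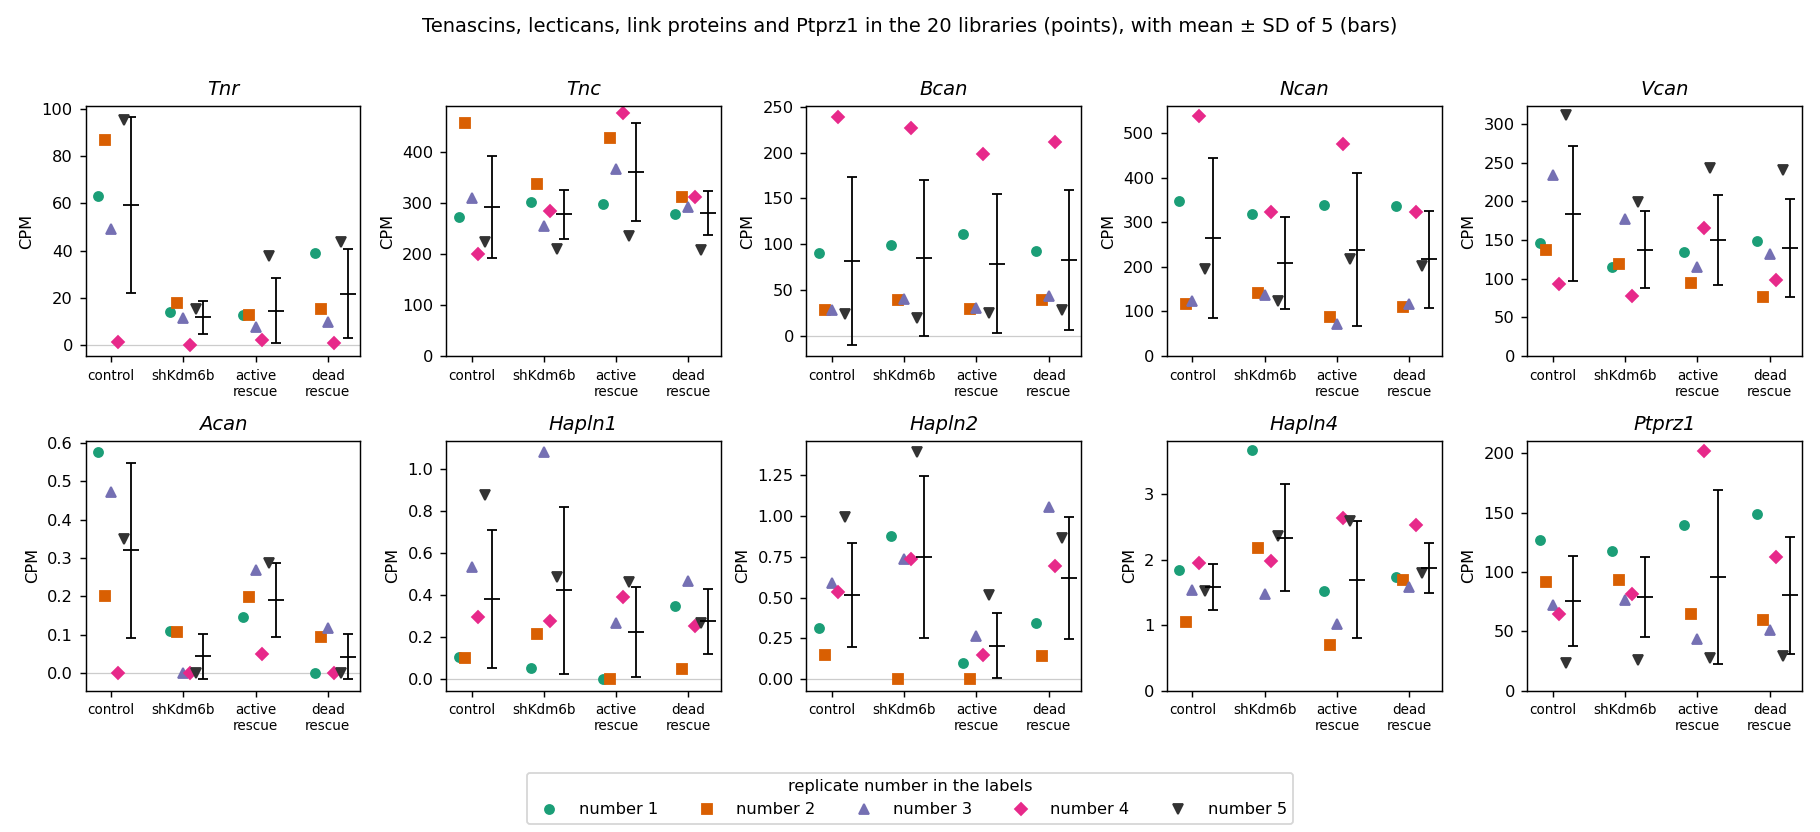
Level of each of the 10 genes in CPM (vertical axes, each with its own scale) in the 5 libraries of each group, with symbols for the replicate number and bars for the mean ± SD of 5. Tnr is at 49.1 to 95.5 CPM in controls 1, 2, 3 and 5 and at 11.3 to 17.9 CPM in the shKdm6b libraries of those numbers, while Bcan and Ncan differ by number more than by group.

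Tnr was lower in the cultures with the shRNA. Its level was 62.9, 86.9, 49.1, 1.36 and 95.5 CPM in control libraries 1 to 5 (mean 59.2 ± 37.2, SD, n = 5) and 14.1, 17.9, 11.3, 0.230 and 15.3 CPM in shKdm6b libraries 1 to 5 (11.7 ± 6.85). Each shKdm6b library was below the control of its number, and the groups overlapped only because control 4 was itself low. A decrease in 5 of 5 pairs was seen in 11.9% of all genes tested. As a share of the same-numbered control, Tnr in shKdm6b was 22.4%, 20.5%, 23.0%, 16.9% and 15.99%, so that the 5 ratios lay close together although the levels spanned a wide range. The ratio of number 4 rests on 5 against 23 counts, with an exact 95% interval of 5.03 to 45.5%, which covers counting error only. With pairing the log2 fold change was -2.24 ± 0.38 (95% interval -3.05 to -1.44, adjusted p = 0.00286, edgeR), that is 0.212 of the control level. Without pairing it was -2.33 ± 1.00 with an adjusted p of 1.00. In bulk RNA, fewer cells of a type and less RNA per cell cannot be told apart.

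Tnr was 1 of 8 members tested that passed the threshold of 0.05 in shKdm6b against control with pairing, where 4.14% of all genes tested were called (2.41% lower). Without pairing edgeR called 0 members (1 at an unadjusted p under 0.05, Tnr; DESeq2 without pairing also called 0) and 0.00654% of all genes. An exact two-sided permutation test of log2 CPM, 5 against 5 libraries, gave p = 0.230 for Tnr (0.690 after adjustment over the 6 comparisons). By sign flips of the 5 paired differences the exact p was 0.0625, which is the lowest value that 5 pairs allow. Without the libraries numbered 4 the groups did not overlap, as was so for 4.82% of all genes, and the paired fit, which then called 6.5% of all genes, gave -2.31 with an adjusted p of 0.00183. The summed level of the granule neuron markers was also lower in 5 of 5 pairs, as were those of the oligodendrocyte precursor, fibroblast and interneuron lists, and that of the unipolar brush and nuclear neuron list was lower in 0 of 5. The part of these shifts in the Tnr difference was not tested. The sum of the oligodendrocyte list, a cell type known for Tnr beside some neurons, was lower in 3 of 5 pairs, and its part was not tested either.

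With either rescue domain Tnr was below the control of its number in most pairs, and neither rescue passed the test against shKdm6b. With the active domain, Tnr was at 12.6, 12.8, 7.70, 1.95 and 37.7 CPM in libraries 1 to 5, which is 20.1%, 14.7%, 15.7%, 144% and 39.5% of the same-numbered control. Library 4 was the exception above its control, and its ratio rests on 40 against 23 counts (exact 95% interval 84.1 to 251.7%). With the dead domain, Tnr was at 39.1, 15.5, 9.79, 0.949 and 43.7 CPM, which is 62.1%, 17.8%, 19.9%, 69.9% and 45.8% of the same-numbered control. Libraries 1, 4 and 5 of the dead rescue were thus above the shKdm6b libraries of their number, whereas libraries 2 and 3 were below. In the active rescue, libraries 4 and 5 were above the shKdm6b libraries of their number (1.95 against 0.230 and 37.7 against 15.3 CPM). Libraries 1 to 3 of the active rescue were below. In number 4 these values rest on 15 (dead) and 40 (active) counts against 5 in shKdm6b.

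Against shKdm6b, the paired log2 fold change of Tnr was 0.33 ± 0.39 for the active rescue (95% interval -0.51 to 1.16, adjusted p = 1.00, edgeR) and 0.76 ± 0.39 for the dead rescue (-0.06 to 1.57, adjusted p = 1.00). Between the rescues it was -0.43 ± 0.39 (active minus dead, -1.26 to 0.39, adjusted p = 1.00), with active below dead in 4 of 5 pairs. These intervals hold both no difference and a change of more than 1.16 on the log2 scale in at least 1 direction. Of all genes tested, 0.00654% passed in the active rescue against shKdm6b, 0.0% in the dead rescue against shKdm6b and 0.00654% between the rescues. None of the 8 members tested did so. At an unadjusted p under 0.05 the edgeR counts were 2, 0 and 2 of 8 members, beside 3.78%, 1.40% and 2.72% of all genes, and DESeq2 with pairing called 0 as well.

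Against control, Tnr in the active rescue had a paired log2 fold change of -1.91 ± 0.39 (adjusted p = 0.0163, edgeR) and was lower in 4 of 5 pairs. It was again 1 of 8 members, where 1.96% of all genes were called (0.87% lower). This call did not hold when active library 1, 2 or 3 or control library 2 or 3 was left out (adjusted p = 0.0783, 0.0716, 0.0650, 0.0584 and 0.0506). In the dead rescue against control the value was -1.48 ± 0.37 (adjusted p = 0.0695), lower in 5 of 5 pairs (5.65% of all genes), and 0 members and 1.18% of all genes were called; at an unadjusted p under 0.05 edgeR counted 1 member, Tnr, and 10.7% of all genes. Leaving out dead library 1 brought its adjusted p to 0.0349, and leaving out all 4 libraries numbered 4 to 0.0317, a fit that called 2.48% of all genes. The 3 comparisons with control share the 5 control libraries, so their values for Tnr are not independent.

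**Figure D2:**
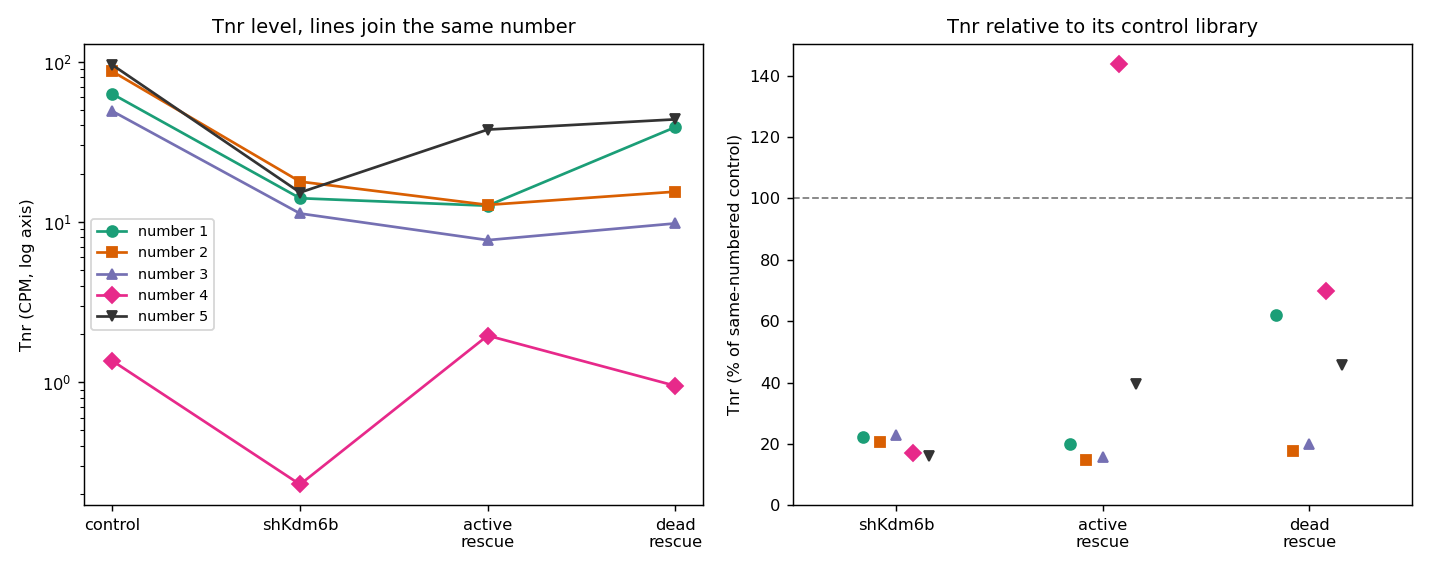
Left, Tnr level in CPM (log axis) in the 4 groups, with lines joining libraries of the same replicate number. Right, Tnr in each shRNA library as a percentage of the control of its number (dashed line at 100%): the 5 shKdm6b libraries lie at 15.99 to 23.0%, the active rescue at 14.7 to 144% and the dead rescue at 17.8 to 69.9%.

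Tnc, the other tenascin, was far more abundant and differed little between control and shKdm6b. It was at 272, 455, 309, 199.7 and 224 CPM in control libraries 1 to 5 and at 301, 336, 255, 284 and 209 CPM in shKdm6b libraries 1 to 5, and the ranges overlapped. The paired log2 fold change was -0.06 ± 0.15 (95% interval -0.36 to 0.25, adjusted p = 0.928, edgeR), lower in 3 of 5 pairs. In the active rescue Tnc was at 298, 427, 366, 475 and 235 CPM, and in the dead rescue at 278, 312, 291, 312 and 207 CPM. Each active library was above the dead library of its number, a pattern seen in 3.49% of all genes tested. The difference of 0.35 ± 0.15 on the log2 scale (active minus dead) had an unadjusted p of 0.0297 and an adjusted p of 1.00 in edgeR, and did not pass. Active against shKdm6b gave a similar 0.36 ± 0.15 (unadjusted p = 0.0234, paired edgeR), which did not pass the adjusted threshold either.

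The proportion of the 2 tenascins differed between control and shKdm6b libraries of the same number. Per exon length, Tnr made up 12.3%, 10.3%, 8.77%, 0.409% and 20.5% of the sum of Tnr and Tnc in control libraries 1 to 5. In shKdm6b libraries it made up 2.74%, 3.11%, 2.60%, 0.0489% and 4.23%. The active rescue had shares of 2.50%, 1.77%, 1.25%, 0.248% and 8.84%, and the dead rescue 7.82%, 2.91%, 1.99%, 0.183% and 11.3%. Outside number 4, every control library was above every shKdm6b library in this share, whereas dead library 5, at 11.3%, was above control libraries 2 and 3 and active library 5, at 8.84%, was above control library 3. Number 4 had less than 0.5% Tnr in every group.

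Among the lecticans, Bcan, the short brain-specific lectican brevican, did not differ between the groups beyond the spread. It was at 90.7, 28.9, 28.8, 238 and 24.3 CPM in control libraries 1 to 5 and at 99.3, 39.5, 39.9, 227 and 19.3 CPM in shKdm6b libraries 1 to 5. The libraries numbered 4, of whichever group, were at 199 to 238 CPM, and all others at 19.3 to 112 CPM. The replicate number took 97.6% of the sum of squares of log2 CPM of Bcan and the group 0.483%, against medians of 71.7% and 4.26% over all genes tested. The paired difference between shKdm6b and control was 0.13 ± 0.13 (adjusted p = 0.719, edgeR), and in the 5 other comparisons it ran from -0.17 to 0.21. The summed astrocyte and Bergmann glia markers were also highest in the libraries numbered 4, and their part in the Bcan levels was not tested.

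Ncan, which is neurocan, a lectican of the developing brain, was at 349, 116, 122, 538 and 195 CPM in control and at 319, 140, 136, 322 and 122 CPM in shKdm6b libraries 1 to 5. Numbers 1 and 4 were the highest in all 4 groups, and the ranges of the groups overlapped. The number took 88.5% of its sum of squares and the group 1.32%. Its paired log2 fold change in shKdm6b against control was -0.19 ± 0.19 (adjusted p = 0.756, edgeR), lower in 3 of 5 pairs.

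Vcan encodes versican, a lectican that is also made outside the brain. It was at 146, 137, 234, 92.5 and 312 CPM in control libraries 1 to 5 and at 116, 119, 177, 77.2 and 199.6 CPM in shKdm6b libraries 1 to 5. Every shKdm6b library was below the control of its number (11.9% of all genes were lower in 5 of 5 pairs), but the difference of -0.37 ± 0.20 did not pass (adjusted p = 0.423, edgeR). Number 5 had the highest Vcan in every group, at 199.6 to 312 CPM. Fibroblast and meningeal markers (9 genes) summed to 18747 to 24639 CPM in number 5 and to 3541 to 13292 CPM elsewhere, and were also lower in shKdm6b in 5 of 5 pairs. Their part in the Vcan values was not tested. In the active rescue Vcan was at 94.1 to 243 CPM and in the dead rescue at 76.5 to 240 CPM, with paired differences from control of -0.22 ± 0.20 (adjusted p = 0.753, edgeR) and -0.39 ± 0.20 (adjusted p = 0.529).

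Acan, the gene of aggrecan, a major lectican of mature perineuronal nets, was close to the limit of detection. It had 11, 4, 8, 0 and 6 counts in control libraries 1 to 5, a sum of 29, and 2, 2, 0, 0 and 0 in shKdm6b libraries, a sum of 4. The active rescue had 3, 4, 5, 1 and 5 counts (18 in all) and the dead rescue 0, 2, 2, 0 and 0 (4 in all). In a library with 0 counts, a level of up to 3 counts, which is 0.138 to 0.199 CPM, cannot be told from absence. The order of the sums was control, active rescue, then shKdm6b and dead rescue alike, but Acan was below the filter. When the filter was dropped, the paired log2 fold change in shKdm6b against control was -2.66 with an unadjusted p of 0.00811 and an adjusted p of 0.158 (edgeR), and between the active and the dead rescue it was 2.06 with an unadjusted p of 0.0398 and an adjusted p of 1.00. Neither passed, and these folds depend on the prior count.

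**Figure D3:**
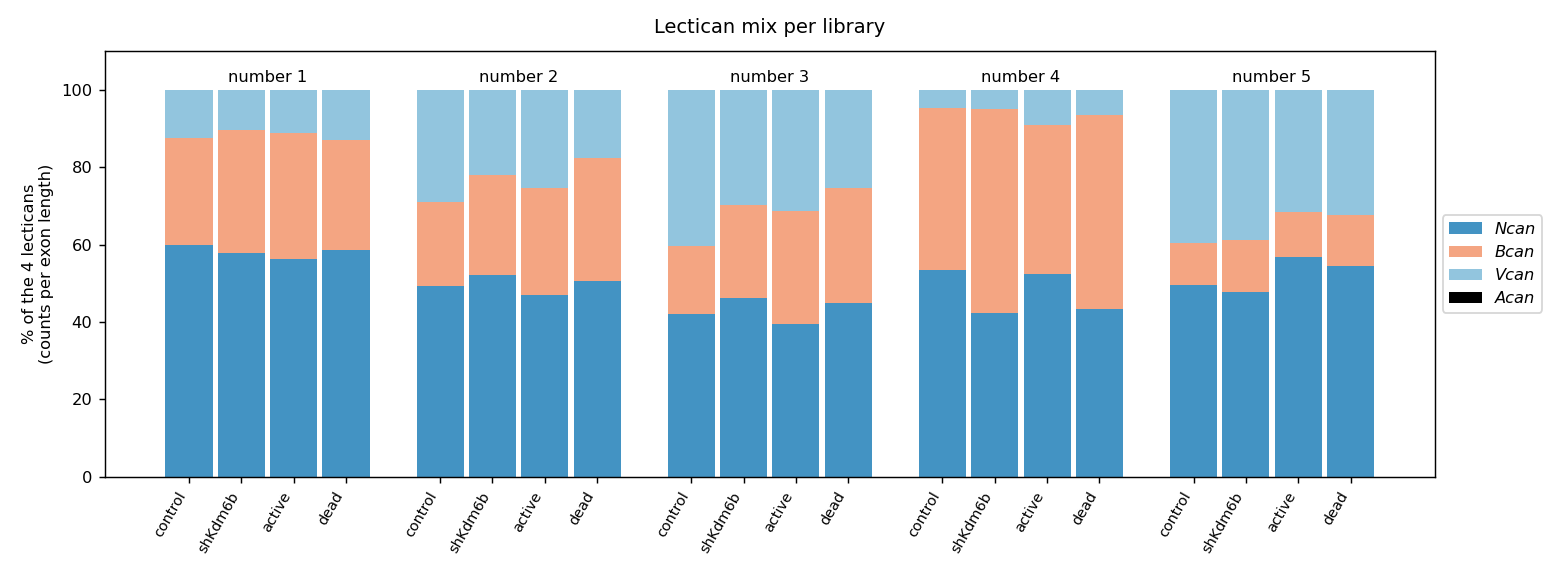
Share of each lectican in the summed level of the 4 (percent, counts per exon length), 1 bar per library, ordered by replicate number and then by group. Ncan makes up 39.4 to 59.9%, Bcan 10.9 to 52.7% and Vcan 4.58 to 40.1%, and Acan at 0.156% or less is too small to see; bars of the same number resemble each other.

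The mix of lecticans followed the replicate number. In number 4, Bcan made up 38.6 to 52.7% of the lectican sum per exon length and Vcan 4.58 to 9.03%. In number 5, Bcan made up 10.9 to 13.4% and Vcan 31.5 to 39.4%. Ncan was the least variable of the 3, at 50.9 ± 6.50% in control, 49.2 ± 5.94% in shKdm6b, 50.3 ± 7.27% in the active rescue and 50.4 ± 6.33% in the dead rescue (SD, n = 5). The group means of Bcan lay between 24.0 and 30.7% and those of Vcan between 18.9 and 25.1%, with SDs of 10.1 to 16.01 percentage points.

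The link proteins were scarce. Hapln1, best known from cartilage and from perineuronal nets, had 0 to 22 counts in a library, was below the filter, and had its highest level, 1.08 CPM, in shKdm6b library 3. Hapln4, a link protein of the brain known from perineuronal nets, was at 1.83, 1.05, 1.53, 1.95 and 1.52 CPM in control and at 3.67, 2.18, 1.47, 1.98 and 2.36 CPM in shKdm6b libraries 1 to 5. It was higher in 4 of 5 pairs, but the paired log2 fold change of 0.57 ± 0.28 did not pass (adjusted p = 0.362, edgeR).

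Hapln2, a link protein of the matrix at nodes of Ranvier, was lowest in the active rescue, at a low depth. It had 6, 3, 10, 9 and 17 counts in control libraries 1 to 5, 16, 0, 15, 16 and 23 in shKdm6b, 2, 0, 5, 3 and 9 in the active rescue and 7, 3, 18, 11 and 13 in the dead rescue. Each active library was below the control and the dead library of its number (4.49% and 1.98% of all genes, respectively). Against shKdm6b the paired log2 fold change was -1.89 ± 0.46 with an unadjusted p of 0.000827 and an adjusted p of 0.468, and against dead it was -1.69 ± 0.48 with an unadjusted p of 0.00259 and an adjusted p of 0.993 (edgeR). Neither passed over the whole table. The 9 oligodendrocyte markers, a cell type known for Hapln2, summed to 27.8 to 64.9 CPM in number 2, where Hapln2 had 0 to 3 counts, and to 306 to 887 CPM elsewhere. In the active rescue this sum was 30.8 to 887 CPM against 64.9 to 625 CPM in shKdm6b, and its part in the Hapln2 values was not tested.

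Ptprz1, the tenascin and pleiotrophin receptor, did not differ between the groups beyond the spread. It was at 127, 91.8, 72.4, 64.8 and 23.1 CPM in control and at 118, 93.5, 76.3, 81.4 and 25.4 CPM in shKdm6b libraries 1 to 5. Its highest level, 202 CPM, was in active library 4, and its lowest levels, 23.1 to 28.8 CPM, were in the 4 libraries numbered 5. The paired log2 fold change in shKdm6b against control was 0.07 ± 0.25 (95% interval -0.45 to 0.60, adjusted p = 0.949, edgeR).

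**Figure D4:**
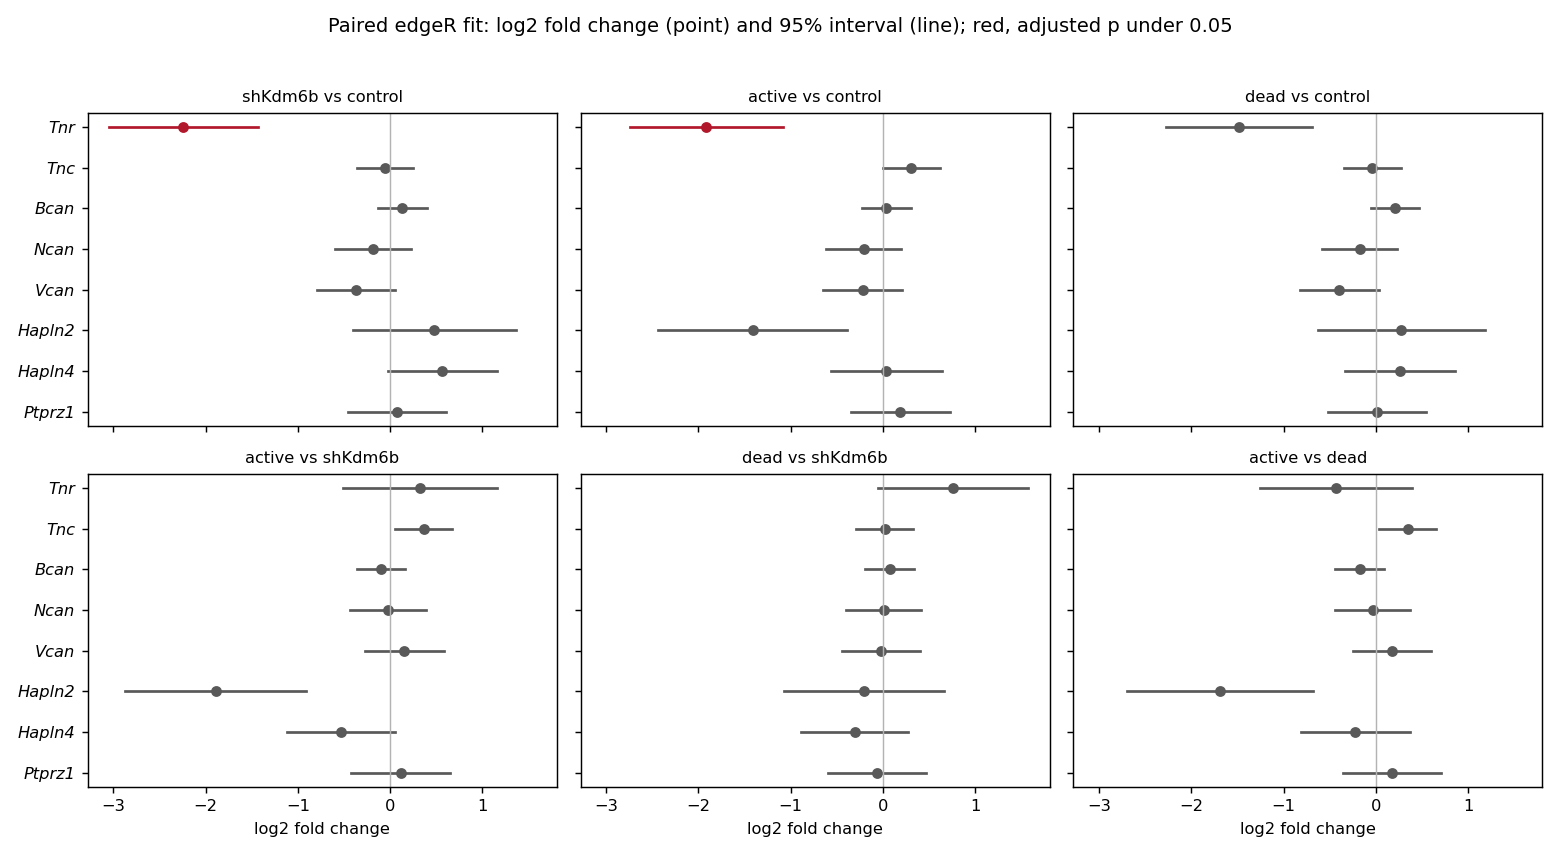
Paired edgeR log2 fold change (point) and 95% interval (line) of the 8 members tested, 1 panel per comparison; red marks an adjusted p under 0.05. Tnr at -2.24 in shKdm6b against control and at -1.91 in active against control are the red points, while the other 7 members lie between -0.37 and 0.57 in shKdm6b against control.

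In shKdm6b against control the 7 other members tested thus had log2 fold changes of -0.37 to 0.57 and adjusted p-values of 0.362 to 0.949 in the paired edgeR fit. The median over the 8 members was 0.01, as was that of all genes tested. The intervals of Tnc and Bcan in that comparison lay within 0.40 of no change in either direction, whereas that of Hapln2 ran from -0.40 to 1.36.

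**Figure D5:**
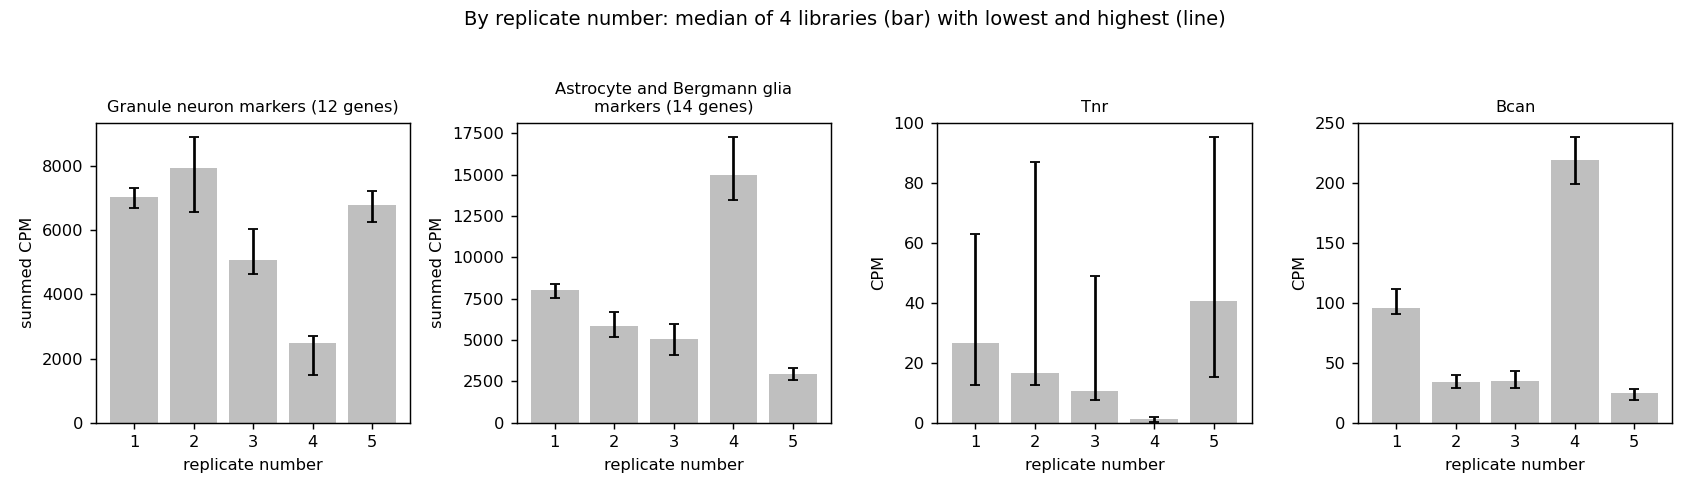
Summed markers of granule neurons and of astrocytes and Bergmann glia, and the levels of Tnr and Bcan, by replicate number (bar, median of 4 libraries; line, lowest to highest). Number 4 has the lowest granule neuron sum and Tnr (0.230 to 1.95 CPM) and the highest glial sum and Bcan (199 to 238 CPM).

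Replicate number 4 stood apart for several members at once. Tnr was at 0.230 to 1.95 CPM there and at 7.70 to 95.5 CPM elsewhere, whereas Bcan was at its highest there in every group. The number took 77.9% of the sum of squares of log2 CPM of Tnr, and the group 15.0%. Of the other members the group took 17.3% for Tnc, 21.6% for Hapln2, 19.2% for Hapln4, 7.64% for Vcan and 0.439% for Ptprz1.

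The genes whose levels followed Tnr most closely across the 20 libraries, after centring on the replicate number, were Plcb1 (r = 0.973), Fndc3a (0.956), Asph (0.955), Vat1l (0.955) and Mbnl2 (0.955), of 11664 genes compared. Plcb1 encodes a phospholipase C, Asph an aspartyl hydroxylase and Mbnl2 a splicing regulator. Plcb1 averaged 81.9 ± 38.7 CPM over the control libraries and 45.1 ± 21.8 CPM over those with the shRNA alone (SD, n = 5), a smaller difference than that of Tnr relative to control. These correlations describe libraries that share groups and numbers. Among the members with a mean of at least 5 CPM, Vcan was closest to Tnr (r = 0.80, rank 264), and Tnc was at r = 0.18. Acan, Hapln1, Hapln2 and Hapln4 were below that level and were not compared.

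Of 108 tested genes in 6 lists of related matrix genes, 6 were called in shKdm6b against control with pairing, which is 5.56% beside 4.14% of all genes. Of 2 tested relatives of these families, Tnxb (tenascin-X, of connective tissue) was lower in shKdm6b, at 24.9 ± 5.57 against 36.8 ± 9.82 CPM (log2 fold change -0.57 ± 0.12, adjusted p = 0.0126, paired edgeR). Of 32 receptors and ligands, Rtn4rl1, a Nogo receptor family member that binds chondroitin sulfate, was the single one called, at 21.7 ± 8.19 against 31.2 ± 9.80 CPM (-0.58 ± 0.13, adjusted p = 0.0135). None of 13 genes of hyaluronan synthesis, turnover and reception, 21 of chondroitin sulfate synthesis or 17 matrix proteases and inhibitors was called by edgeR with pairing, and 1, 5 and 1 of them had an unadjusted p under 0.05, beside 14.9% of all genes. The median log2 fold changes of these 3 lists were 0.06, -0.04 and -0.09, beside 0.01 for all genes, and that of the receptors and ligands was -0.12.

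Of 23 other brain proteoglycans and matrix genes, 4 were lower in shKdm6b and 0 higher with pairing, where 2.41% of all genes were called lower. They were Spock2, a testican (163 ± 82.7 against 268 ± 134 CPM, log2 fold change -0.81, adjusted p = 0.0178), Cspg4, the NG2 proteoglycan of oligodendrocyte precursors and pericytes (19.7 ± 10.7 against 30.6 ± 19.3 CPM, -0.59, adjusted p = 0.0233), the secreted Fbln2 (247 ± 228 against 355 ± 310 CPM, -0.60, adjusted p = 0.00824) and the synaptic secreted protein Lgi1 (30.8 ± 14.5 against 45.4 ± 19.1 CPM, -0.59, adjusted p = 0.00601). Each of them was lower in 5 of 5 pairs, as were 11.9% of all genes, while the median of the list was 0.12, on the other side of 0. Cspg4 is itself 1 of the oligodendrocyte precursor markers, whose sum was lower in 5 of 5 pairs, and the part of that sum was not tested. In the active rescue against control, 4 of 108 list genes were called with pairing, which is 3.70% beside 1.96% of all genes. Tnxb (-0.50, adjusted p = 0.0482), Rtn4rl1 (-0.52, adjusted p = 0.0480) and Lgi1 (-0.54, adjusted p = 0.0190) were lower. Sdc3, the neuronal syndecan, was higher (0.40, adjusted p = 0.0370, 447 ± 89.6 against 337 ± 62.4 CPM). It was not particular to that group, at 415 ± 71.8 CPM in shKdm6b and 410 ± 67.5 CPM in the dead rescue, where it was not called. In the dead rescue against control and in the 3 comparisons among shRNA groups, 0 genes of these lists were called by edgeR, and at an unadjusted p under 0.05 a list had 0 to 7 genes in the first (10.7% of all genes) and 0 to 2 in the others (1.40 to 3.78%).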

How the data were processed

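The 20 sequencing libraries, 5 a group, were made from total RNA of cerebellar granule neurons, per the labels' protocols. The authors deposited estimated counts per gene in 1 table whose name gives salmon, with no scaling to library size or length that the values show. Per the submitters' processing notes, reads were placed on mm10; annotation, software versions, trimming and strand: not given in the sources used here. Values that were not whole (7.03 to 11.2% per library) were rounded. Each table column was matched to a sample by its name, and each library was kept. Any pair of a group gave a chi-square of 29.1 to 415 per degree of freedom over genes, so that none was a copy of another. That value does not measure the quality of a library.

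Genes were filtered with filterByExpr (minimum count 10), which kept 15284 of 24411 and removed 9127, and libraries were scaled with TMM (factors 0.953 to 1.12). The 6 comparisons were contrasts of 1 edgeR quasi-likelihood fit (edgeR 4.0.16, R 4.3.3; robust, two-sided) over all 20 libraries, with Benjamini-Hochberg adjustment over all genes and a threshold of 0.05. The fit without pairing was the main design. Since all 30 same-numbered pairs of libraries correlated (r over 0.361, against a median of -0.205 over 120 other pairs), the fit with the replicate number as a block is given with it; the block lowered the biological coefficient of variation from 0.392 to 0.179. Log2 CPM used a prior count of 1. Single values were compared with exact permutation tests. The fits were tested on simulated counts. Alternatives were DESeq2 1.42.0, other size factors, no filter, leaving out each library, and leaving out number 4 or numbers 4 and 5.

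Levels per length used the exons of GENCODE M21 (GRCm38), which gave a length to 23376 genes holding at least 90.8% of the counts. Start regions came from RefSeq (GRCm38.p6). The members and all lists of pathway and marker genes were chosen with earlier results of these data known. Named beside the members were all list genes that the paired fit called, at most 6 a list, and the 5 genes most like Tnr among those with a mean of at least 5 CPM.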

Additional observations from a re-analysis of the deposited data

Results flagged for a closer look

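In 1 of 40 groups checked (10 genes in 4 groups of 5 libraries), a library lay far from the others of its group by Dixon's criterion, which chance meets in about 1 group in 20. It was Hapln4 in dead rescue library 4, at 2.53 CPM, where the other dead rescue libraries were at 1.58 to 1.79 CPM. This value rests on 40 counts.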

How the results depend on the processing

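Without pairing, 1 gene was called in shKdm6b against control and 0 in the other 5 comparisons, and edgeR called 0 members in any (1 in each of shKdm6b against control and active against shKdm6b at an unadjusted p under 0.05); DESeq2 without pairing also called 0. With the replicate block the counts were 632 (shKdm6b against control), 299 (active against control), 181 (dead against control), 1 (active against shKdm6b), 1 (active against dead) and 0 (dead against shKdm6b), with 1, 1, 0, 0, 0 and 0 members. DESeq2 without pairing called 64, 25 and 17 genes against control (shKdm6b, active, dead). DESeq2 with the block called 626 (active against control), 457 (dead against control), 21 (active against shKdm6b) and 3 (active against dead). The paired fit without the 4 libraries numbered 4 called 990, 700 and 378 genes against control and 0 between the rescues. With numbers 1 to 3 alone it called 454 (active against control), 9 (active against dead), 17 (active against shKdm6b) and 1 (dead against shKdm6b). In dead against control 1 member, Tnr, was called with DESeq2 and the block, without number 4, and with numbers 1 to 3 (adjusted p = 0.0490, 0.0317 and 0.0251). The cause of these shifts was not tested.

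Leaving out each library in turn with the block gave 352 to 648 genes in shKdm6b against control, 128 to 384 in active against control, 65 to 179 in dead against control, 0 to 2 in active against shKdm6b and 0 to 2 between the rescues. Members called ranged from 0 to 1 in both rescues against control. Without pairing the ranges were 0 to 9 (shKdm6b against control) and 0 to 2 (dead against control). Tnr in shKdm6b against control was called with the block in all 10 fits with a library left out (log2 fold change -2.45 to -2.04, adjusted p up to 0.0158) and with other size factors, no filter and DESeq2 (-2.28 to -2.24). No called value changed sign under any alternative run. Depth limits Acan, Hapln1 and Hapln2, which had at most 11, 22 and 23 counts in a library.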

Other observations

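Hapln3, the link protein gene beside Acan, was not among the 10 genes and had 4 to 47 counts in a library. It was at 2.24 CPM in control library 4 and at 0.210 to 1.46 CPM in the other controls, and at 2.16 CPM in shKdm6b library 4 and at 0.438 to 1.42 CPM in the other shKdm6b libraries. Apoe, a gene of astrocytes and macrophages, was at 3199 to 7627 CPM in the libraries numbered 4 and at 983 to 2626 CPM elsewhere. Among the libraries numbered 4, the control had the highest Ncan (538 CPM) and the lowest Ptprz1 (64.8 CPM), and the active rescue the highest Tnc (475 CPM) and Ptprz1 (202 CPM).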
